A study of Homo sapiens with 7 samples.

Results

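The peptide hormone genes of the islet and gut were examined in sorted human β-like cells. The members were INS, GCG, SST, IAPP, PPY, GHRL, PYY and GAST, chosen by name and matched by symbol to the Ensembl gene IDs of the count table. All 8 were found among its 66025 genes. Of them, 7 had a mean of at least 5 CPM (library-scaled counts, as defined below) over all libraries, and GAST, below that limit, is reported as low. The cells came from H1, an established line of human embryonic stem cells that was differentiated in culture to stage 6, at which insulin is expressed. Both lines had been transduced with lentivirus and selected with puromycin. The iKD2 line carried an shRNA that targets METTL14 and is switched on by doxycycline (Dox). METTL14 is a subunit of the enzyme that writes N6-methyladenosine on mRNA. The iSCR line carried a scramble control in place of it. The groups were iKD2 Dox+ (n = 3, replicates a to c, shRNA induced), iKD2 Dox- (n = 2, replicates b and c, the same line without Dox) and iSCR Dox+ (n = 2, replicates a and b, scramble with Dox). Before RNA was taken, cells were sorted on DA-ZP1, a fluorescent probe of zinc, which β-cells store with insulin in their granules. The gate was therefore linked to insulin content, and the levels below are those of cells that had passed it. RNA was measured in bulk, so that fewer cells of a type and less RNA per cell cannot be told apart.

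Total estimated counts ranged from 14875429 to 20639156 per library. Levels are given as CPM, counts divided by the size of the library in units of 1e6 counts after scaling by TMM, a method that sets libraries to a common size. The targeted gene did not separate the groups. For METTL14, the libraries labelled iKD2 Dox+ a, b and c held 18.7, 16.3 and 49.1 CPM, against 39.4 and 22.6 in iKD2 Dox- (b, c) and 36.1 and 32.2 in iSCR Dox+ (a, b). The library labelled iKD2 Dox+ c held the highest METTL14 level of all 7, and each direction given for iKD2 Dox+ includes it. The study describes the libraries as independent biological samples, while the labels do not say which cultures they came from, and p-values measure the spread between these libraries.

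The islet divides its hormones between cell types. β-cells make insulin (INS) and, in the same granules, islet amyloid polypeptide (IAPP). α-cells make glucagon (GCG), δ-cells somatostatin (SST), γ-cells pancreatic polypeptide (PPY) and ε-cells ghrelin (GHRL). Peptide YY (PYY) and gastrin (GAST) are best known from the gut, although both are also made in the fetal pancreas. Cells that carry more than one of these hormones are common early in pancreas development and in stem cell cultures. Each hormone is made as a longer precursor that is cut by prohormone convertases.

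The sequences before the start sites of the most abundant hormone genes, and of IAPP, are shown because these genes are known targets of homeodomain factors such as PDX1, which bind sites with a TAAT core, and because SST is the textbook example of a gene with a cAMP response element, TGACGTCA. Each is the 250 bases before the RefSeq start on GRCh38.p14, written 5′ to 3′ on the strand of the gene. Capitals mark TAAT, read on either strand (TAAT or ATTA, overlapping matches included), and TGACGTCA, which reads the same on both strands.
INS, chr11:2161210-2161459, minus strand: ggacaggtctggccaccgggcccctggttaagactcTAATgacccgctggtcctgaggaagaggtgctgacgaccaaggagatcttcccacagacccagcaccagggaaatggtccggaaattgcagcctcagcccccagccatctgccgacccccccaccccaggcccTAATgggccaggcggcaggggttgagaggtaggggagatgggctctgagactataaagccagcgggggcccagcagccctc
GCG, chr2:162152248-162152497, minus strand: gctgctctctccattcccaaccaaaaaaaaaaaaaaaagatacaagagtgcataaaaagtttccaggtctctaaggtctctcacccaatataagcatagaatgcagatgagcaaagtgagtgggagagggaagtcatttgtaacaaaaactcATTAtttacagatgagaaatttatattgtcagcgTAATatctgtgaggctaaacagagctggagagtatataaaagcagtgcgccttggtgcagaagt
SST, chr3:187670395-187670644, minus strand: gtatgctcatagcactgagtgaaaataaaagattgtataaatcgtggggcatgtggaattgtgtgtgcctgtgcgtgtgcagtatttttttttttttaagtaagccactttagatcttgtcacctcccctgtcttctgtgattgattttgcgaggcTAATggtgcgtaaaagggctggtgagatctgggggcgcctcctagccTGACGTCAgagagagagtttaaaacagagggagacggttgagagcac
IAPP, chr12:21372652-21372901, plus strand, the second of 2 listed starts: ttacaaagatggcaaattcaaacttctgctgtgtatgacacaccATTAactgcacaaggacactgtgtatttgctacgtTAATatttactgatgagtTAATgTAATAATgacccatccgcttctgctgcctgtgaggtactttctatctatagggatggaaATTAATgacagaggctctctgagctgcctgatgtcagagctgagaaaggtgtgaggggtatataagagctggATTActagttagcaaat
The INS and GCG sequences held 2 matches to TAAT each, SST held 1 and this IAPP sequence 8. Among 35116 promoter windows of this length, 47.4% held at least 1 match, 27.6% at least 2 and 6.16% at least 5. SST held the 1 match to TGACGTCA among the members, against 1.65% of all windows. The windows of PPY, GHRL, PYY and GAST held neither motif, and the other IAPP start held 2 matches to TAAT. These matches are letters in a window, and binding was not measured.

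INS stood first among the members in every library when levels were compared per length of transcript (CPM divided by the median length, in kb, of the coding transcripts of the gene in GENCODE 29). Its mean level was 31922 ± 8901 CPM per kb (SD, n = 7). GCG followed at 8907 ± 2258 CPM per kb and SST at 4464 ± 1238 CPM per kb. The lowest INS value of any library, 22595 CPM per kb, lay above the highest GCG value, 12304 CPM per kb. The ranges of GCG and SST overlapped, and in iKD2 Dox+ a SST stood above GCG, at 6316 against 4827 CPM per kb. A wide step separated these from the other hormones, since the mean of SST was 26.7 times that of PYY.

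The lower tier was made up of IAPP and of hormones known from minor islet cell types and the gut. PYY was at 167 ± 38.2 CPM per kb (SD, n = 7), PPY at 88.7 ± 42.0, GHRL at 55.7 ± 17.3 and IAPP at 35.8 ± 17.6 on the same scale. Each of these ranges overlapped that of its neighbor in the order, so that their order was not settled. IAPP, the partner of insulin in the β-cell granule, was thus among the lowest of the members. GAST was at 2.45 ± 3.44 CPM per kb and did not reach the lowest IAPP value in any library.

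**Figure D1:**
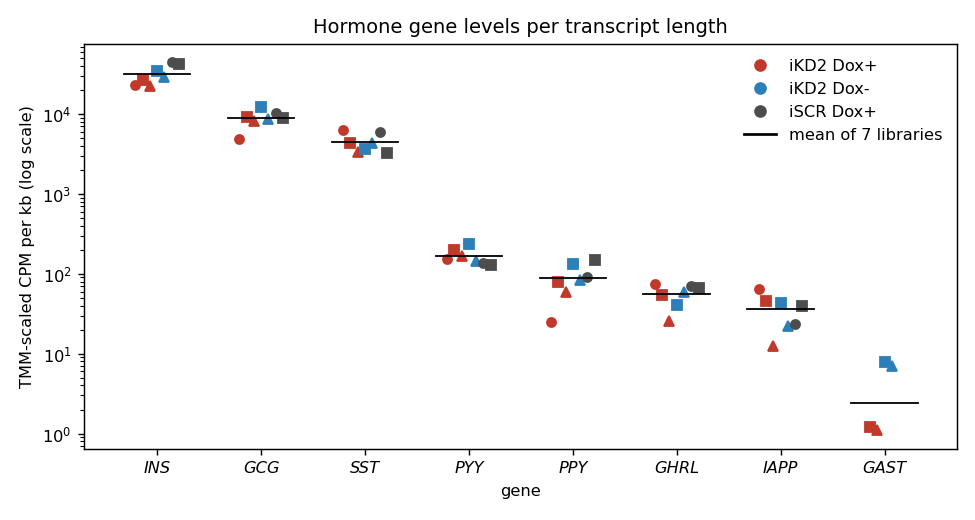
Levels of the 8 hormone genes in TMM-scaled CPM per kb of coding transcript (log scale), 1 point per library, colored by group, with circles, squares and triangles for replicates a, b and c. Lines mark the mean of 7 libraries. INS, GCG and SST stand well above the rest, and the 3 libraries with a GAST count of 0 are not drawn.

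The order depends in part on which length is used. With the length of all exons joined, SST (4464 CPM per kb) came before GCG (3896 CPM per kb). The ranges of IAPP and GAST also overlapped with that length or with the longest coding transcript. INS remained first with each length.

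INS (ENSG00000254647, chr11:2159779-2161341 in GENCODE 29 on GRCh38, as are the coordinates of all genes here) had CPM values of 11625, 13581 and 11365 with the shRNA induced (iKD2 Dox+ a, b, c). Uninduced cells (iKD2 Dox- b, c) had 17393 and 14630, and scramble cells (iSCR Dox+ a, b) had 22298 and 21507. Values of the other genes are given in this order of libraries. The groups formed 3 steps with no overlap, lowest with the shRNA induced and highest in the scramble line. The mean was 12190 ± 1211 CPM in iKD2 Dox+ (SD, n = 3). It was 16011 ± 1954 in iKD2 Dox- and 21903 ± 559 in iSCR Dox+ (SD, n = 2 each).

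GCG (ENSG00000115263, chr2:162142873-162152404), the precursor of glucagon and of the GLP-1 peptides, had 5039, 9471 and 8559 CPM in iKD2 Dox+, against 12846 and 9059 in iKD2 Dox- and 10704 and 9412 in iSCR Dox+. The groups overlapped, and iKD2 Dox+ a was the lowest library. SST (ENSG00000157005, chr3:187668906-187670399), which encodes the inhibitor of insulin and glucagon release, had 3904, 2705 and 2073 CPM in iKD2 Dox+, against 2281 and 2655 in iKD2 Dox- and 3705 and 1988 in iSCR Dox+. The highest and the second-highest SST levels were thus in iKD2 Dox+ a and iSCR Dox+ a, and the lowest in iSCR Dox+ b.

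INS varied less among replicates than GCG and SST did. The SD of log2 CPM within groups was 0.13 for INS, 0.39 for GCG and 0.46 for SST. Among the 9 genes whose mean CPM was within 2 times that of INS, itself included, the median SD was 0.16. It was 0.22 for the 9 genes at the level of GCG and 0.15 for the 31 genes at the level of SST. Of those 31 genes, 96.8% had a smaller SD than SST.

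PYY (ENSG00000131096, chr17:43952738-44004469) had 126, 163 and 138 CPM in iKD2 Dox+, against 192 and 116 in iKD2 Dox- and 113 and 106 in iSCR Dox+. The lowest levels were those of the scramble line. PPY (ENSG00000108849, chr17:43940804-43942468), a paralog of PYY on the same stretch of chromosome 17, had 11.9, 38.2 and 28.7 CPM in iKD2 Dox+, against 64.5 and 39.8 in iKD2 Dox- and 44.1 and 70.6 in iSCR Dox+. All 3 libraries with the shRNA induced lay below the 4 controls, although iKD2 Dox+ b (38.2 CPM) was close to iKD2 Dox- c (39.8 CPM).

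IAPP (ENSG00000121351, chr12:21354959-21379978) spread more widely inside a group than between groups. It had 29.4, 21.2 and 5.66 CPM in iKD2 Dox+, against 19.9 and 10.2 in iKD2 Dox- and 10.8 and 18.0 in iSCR Dox+. The highest and the lowest level were both in iKD2 Dox+. GHRL (ENSG00000157017, chr3:10285675-10292947), whose product stimulates appetite, had 32.8, 23.9 and 11.4 CPM in iKD2 Dox+, against 18.0 and 26.1 in iKD2 Dox- and 30.7 and 29.8 in iSCR Dox+. Its highest and lowest levels, too, were both in iKD2 Dox+, and the replicates of the scramble line were close to each other.

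GAST (ENSG00000184502, chr17:41712326-41715969), which encodes the gastric acid secretagogue gastrin, was low but unevenly so. Induced cells had 0, 9 and 9 counts, uninduced cells had 76 and 60, and both scramble libraries had 0. The counts above 0 were 0.562 and 0.515 CPM in the induced libraries b and c, against 3.70 and 3.27 in the uninduced libraries. Counts were seen in the iKD2 line and not in the scramble line, where a count of 0 allows up to 0.203 CPM in a and 0.201 CPM in b (3 counts). Against that floor the mean level was 17.3-fold higher in iKD2 Dox- and 1.78-fold higher in iKD2 Dox+. The floor covers counting error only, and replicates differed by far more, so that these folds are not firm lower bounds. The induced library a also had a count of 0. In edgeR neither difference from iSCR Dox+ passed. The log2 fold change was 8.89 for iKD2 Dox- (edgeR adjusted p = 0.826) and 5.64 for iKD2 Dox+ (edgeR adjusted p = 0.716).

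**Figure D2:**
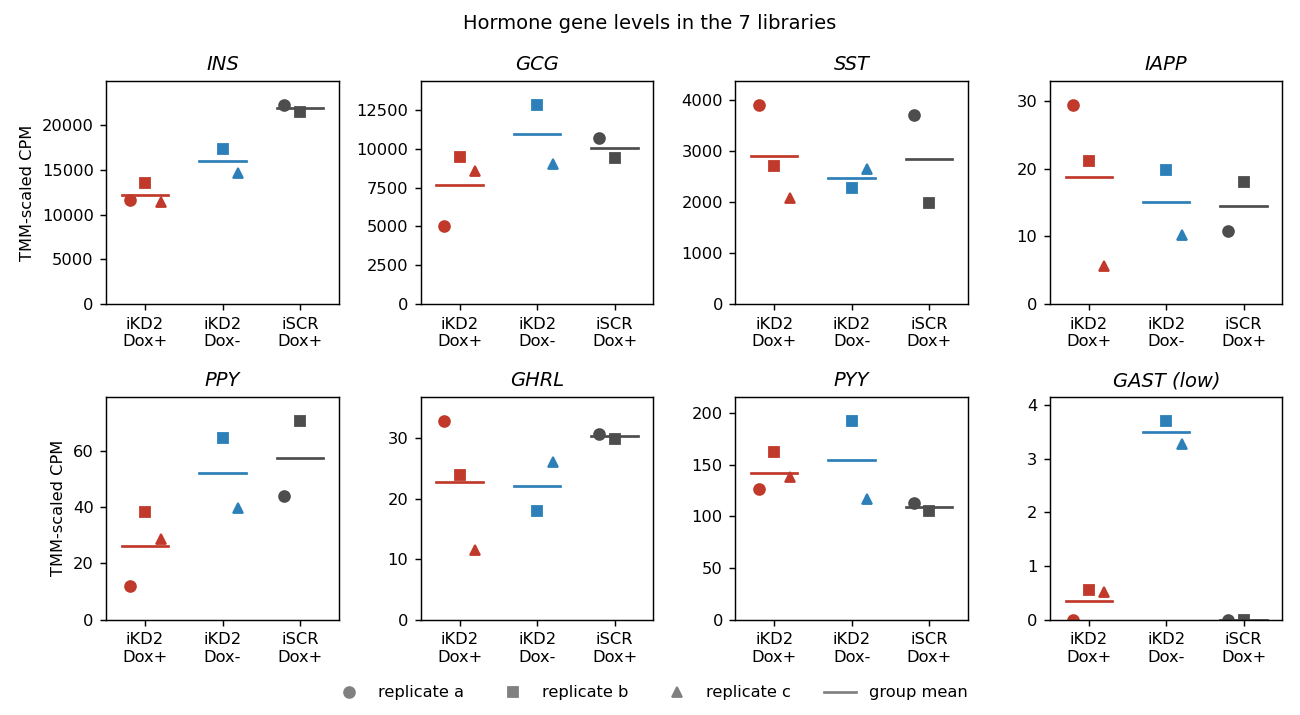
TMM-scaled CPM of the 8 hormone genes, 1 panel per gene with its own linear axis from 0, 1 point per library, with circles, squares and triangles for replicates a, b and c and a line for each group mean. INS falls into 3 separate steps, PPY is lowest in iKD2 Dox+, and GAST has its 2 highest values in iKD2 Dox-.

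Some members may share reads with other annotated genes. INS lies inside the read-through gene INS-IGF2 on the same strand, whose estimated count was 0 in 3 libraries and at most 0.437% of the INS count in the others. GHRL overlaps its antisense gene GHRLOS, whose count was 0 in iKD2 Dox+ a and between 8.46% and 38.5% of the GHRL count in the other libraries. The strand setting of the counting is not given in the sources used here, so that reads of GHRL and of its antisense partner may have been mixed and the GHRL level is uncertain. IAPP overlaps SLCO1A2 on the opposite strand. The near-identical genes PYY2, PYY3 and PPY2P had at most 1 count in any library.

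Together the hormone genes made up between 2.03% of all counts (iKD2 Dox+ a) and 3.54% (iSCR Dox+ a). INS took 56.0%, 52.2% and 51.2% of the hormone counts in iKD2 Dox+, 53.0% and 55.1% in iKD2 Dox- and 60.4% and 64.9% in iSCR Dox+. GCG took 24.3%, 36.4% and 38.6% in iKD2 Dox+, 39.1% and 34.1% in iKD2 Dox-, and 28.4% in iSCR Dox+ b, with iSCR Dox+ a within 1 percentage point of it. SST took between 6.00% (iSCR Dox+ b) and 18.8% (iKD2 Dox+ a). The scramble libraries had the highest shares of INS, and iKD2 Dox+ a had the lowest share of GCG and the highest share of SST. No 95% Wilson interval of these shares was wider than 0.165 percentage points to either side. Such an interval covers at most counting error, not the spread between replicates. It understates counting error where reads are PCR copies, which are not independent molecules.

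Counts were next set against the INS count of the same library, which does not depend on library size. GCG stood at 43.3%, 69.7% and 75.3% of the INS count in iKD2 Dox+, at 73.9% and 61.9% in iKD2 Dox- and at 48.0% and 43.8% in iSCR Dox+. Glucagon reads were therefore a large part of the hormone reads in cells sorted on zinc. These are counts, and the median coding transcript of GCG is longer than that of INS (1044 against 503 bases). Per kb, the GCG share of the hormone counts was lower, from 14.0% (iKD2 Dox+ a) to 24.1% (iKD2 Dox- b). SST stood at 33.6%, 19.9% and 18.2% of INS in iKD2 Dox+, at 13.1% and 18.1% in iKD2 Dox- and at 16.6% and 9.24% in iSCR Dox+. Every iKD2 Dox+ library lay above every control, although the closest pair, iKD2 Dox+ c and iKD2 Dox- c, stood at 18.2% and 18.1%. PYY stood at 1.08%, 1.20% and 1.21% of INS in iKD2 Dox+, at 1.11% and 0.796% in iKD2 Dox- and at 0.506% and 0.491% in iSCR Dox+. Both groups of the iKD2 line lay above the scramble line for this ratio. PPY was at 0.102% to 0.371% of INS and GHRL at 0.101% to 0.283%, and for both these ratios overlapped in all 3 comparisons. IAPP was at 0.0487% to 0.253% of INS, so that there were between 395 and 2054 INS counts for each IAPP count.

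**Figure D3:**
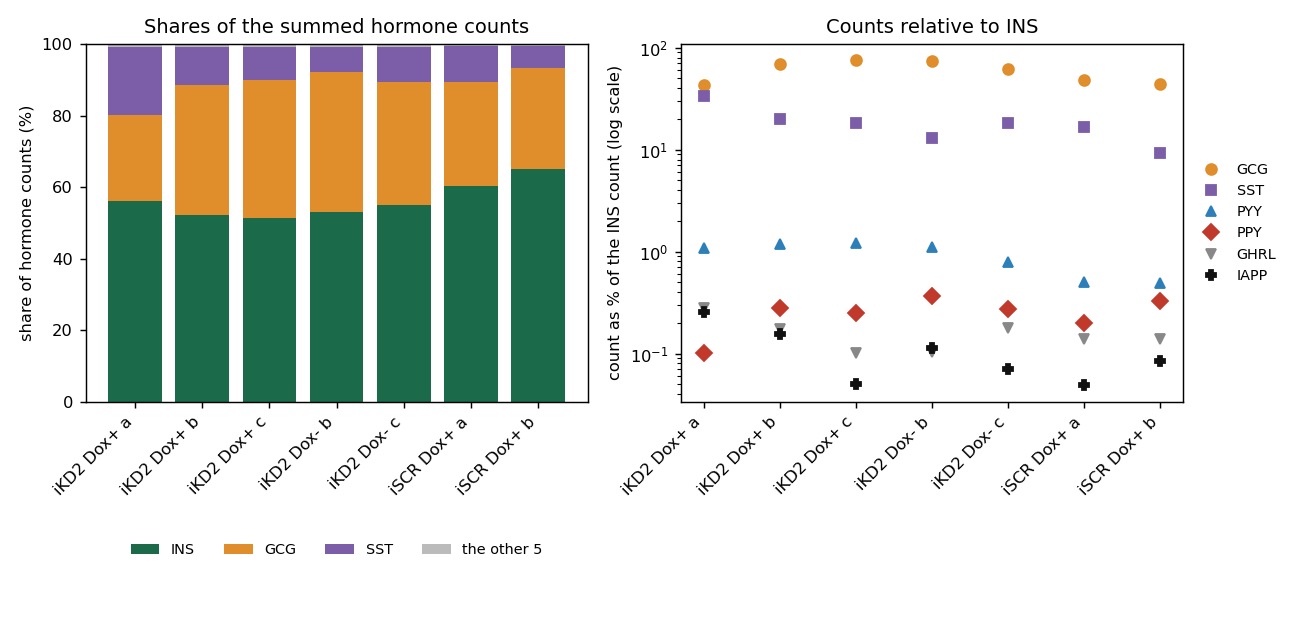
Left, share of each gene in the summed counts of the 8 hormone genes, in percent, by library. Right, count of 6 hormone genes as a percentage of the INS count of the same library (log scale). GCG ranges from 43.3% to 75.3% of INS, and PYY is lowest in the 2 iSCR Dox+ libraries.

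The ratios were compared between groups with exact two-sided permutation tests, 6 hormones in 3 comparisons, 18 tests in all. Neither design can reach 0.05, as the smallest p is 0.2 for 3 against 2 libraries and 0.333 for 2 against 2. The log2 ratio of SST to INS was higher in iKD2 Dox+ by 0.58 than in iKD2 Dox- and by 0.89 than in iSCR Dox+, with no overlap (exact permutation p = 0.2 and adjusted p = 0.9 in both). The ratio of PYY to INS was higher by 1.22 in iKD2 Dox+ and by 0.91 in iKD2 Dox- than in iSCR Dox+, also with no overlap (exact permutation p = 0.2 and 0.333, adjusted p = 0.9 in both). The ratio of GCG to INS was higher by 0.56 in uninduced than in scramble cells (exact permutation p = 0.333, adjusted p = 0.9). INS itself differed between these groups, and the ratio to INS of any gene moves with it. Of all genes tested, 27.0% had a ratio to INS that did not overlap between iKD2 Dox+ and iKD2 Dox-, 41.7% between iKD2 Dox+ and iSCR Dox+ and 41.3% between iKD2 Dox- and iSCR Dox+.

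The first comparison asked whether induction of the shRNA in the iKD2 line was accompanied by a change of hormone genes. No hormone gene passed an adjusted p of 0.05 in edgeR's quasi-likelihood test, where 0.0393% of all 22926 genes did. The count was also 0 with DESeq2 and with limma voom. At an unadjusted p under 0.05 it was 1 of 8, against 3.72% of all genes. That gene was INS, with a log2 fold change of -0.39 (SE 0.10, 95% CI -0.61 to -0.18, edgeR adjusted p = 0.451), lower in 3 of 3 libraries. The adjusted p was 0.0314 without iSCR Dox+ a and 0.0361 without iSCR Dox+ b, libraries that share the fit but not the comparison, where more genes passed the filter. GCG had a log2 fold change of -0.51 (SE 0.31, 95% CI -1.28 to 0.26) and PPY of -0.99 (SE 0.53, 95% CI -2.10 to 0.12), both with an edgeR adjusted p of 1. INS, PPY and GAST did not overlap between the groups, 3 of 8 members, against 20.3% of all genes. GAST passed the filter on low counts only through the iKD2 Dox- libraries, so that its lack of overlap was largely set by the filter. SST (0.23), IAPP (0.32), GHRL (0.04) and PYY (-0.12) had log2 fold changes within 1 SE of 0 and overlapped. GAST was at 0.359 ± 0.312 CPM (SD, n = 3) against 3.49 ± 0.307 CPM (SD, n = 2), a fitted log2 fold change of -3.25 with an SE of 3.24.

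The second comparison set the knockdown line against the scramble line, both with Dox. INS was the hormone gene that fell, by 0.85 on the log2 scale (SE 0.10, 95% CI -1.06 to -0.63, edgeR adjusted p = 4.71e-04), and 0.0262% of all genes passed in this comparison. It was lower in 3 of 3 iKD2 Dox+ libraries. The adjusted p ranged from 4.58e-13 to 0.0638 over 23 alternatives, and INS passed in 21 of them. It did not pass without iKD2 Dox+ a (-0.81, adjusted p = 0.0638), nor when only genes with a mean of at least 5 CPM were tested (-0.86, adjusted p = 0.0502). Leaving out the library labelled iKD2 Dox+ c gave -0.80 (adjusted p = 0.0349).

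PPY, at -1.13 (SE 0.53, 95% CI -2.24 to -0.02), was the other of the 2 members with an unadjusted p under 0.05, against 6.72% of all genes, and its edgeR adjusted p was 0.699. PYY had a log2 fold change of 0.38 (SE 0.30, edgeR adjusted p = 0.750), and all iKD2 Dox+ libraries lay above both of iSCR Dox+. INS, PPY and PYY were thus the 3 of 8 members with no overlap, against 20.5% of all genes. GCG (-0.39, SE 0.31), SST (0.02, SE 0.36), IAPP (0.38, SE 0.92) and GHRL (-0.41, SE 0.68) overlapped between the groups. The 95% intervals of IAPP (-1.53 to 2.29) and GHRL (-1.82 to 0.99) were the widest among these, so that changes within them were not detectable in these libraries.

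The third comparison set the control groups against each other, in which line and Dox both differ. INS was lower in 2 of 2 iKD2 Dox- libraries, with a log2 fold change of -0.45 (SE 0.12, 95% CI -0.69 to -0.21, edgeR adjusted p = 0.614). No member passed in edgeR (0.0131% of all genes did) or in DESeq2, and INS passed in limma voom (-0.38, adjusted p = 8.91e-05). It also passed in edgeR without iKD2 Dox- b (-0.58, adjusted p = 0.0494) or without iSCR Dox+ b (-0.48, adjusted p = 0.0378). INS was the 1 member with an unadjusted p under 0.05, against 4.45% of all genes. PYY was at 0.50 (SE 0.32, edgeR adjusted p = 0.826), GHRL at -0.46 (SE 0.75) and GCG at 0.12 (SE 0.34). INS, GHRL, PYY and GAST did not overlap between these groups, 4 of 8 members, against 33.1% of all genes. For GAST this was again largely set by the filter, which it passed only through iKD2 Dox-. Since 2 of the 3 comparisons share each group, their values are given side by side and are not independent. For INS the log2 fold changes were -0.39, -0.85 and -0.45 in the 3 comparisons.

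**Figure D4:**
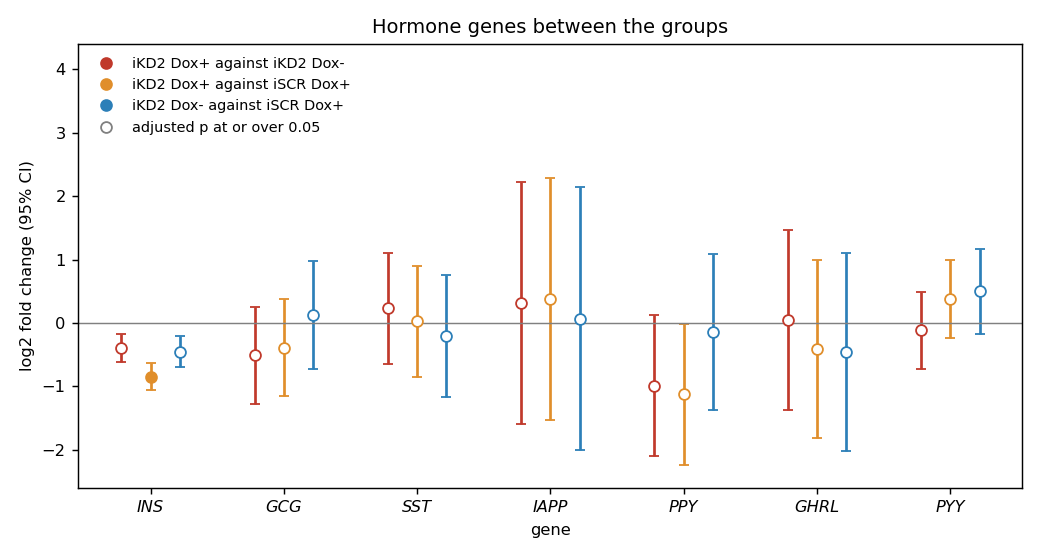
Log2 fold changes with 95% confidence intervals of the 7 hormone genes at or over 5 mean CPM, in 3 comparisons (edgeR, all 7 libraries in 1 fit). The filled point, INS in iKD2 Dox+ against iSCR Dox+, is the 1 value with an adjusted p under 0.05, and the intervals of IAPP and GHRL are the widest.

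Markers of duct, acinar, mesenchyme and endothelium cells were set beside INS. The duct and acinar sum was highest in iKD2 Dox+, where INS was lowest. Of 11 duct and acinar markers, 6 or 7 were at 5 CPM or more in each library, and their summed level was 864 to 924 CPM in iKD2 Dox+, 427 to 506 CPM in iKD2 Dox- and 520 to 641 CPM in iSCR Dox+. Most of it was KRT19, a keratin of duct cells (533, 626 and 640 CPM in iKD2 Dox+, against 280 to 395 CPM in the controls). Acinar markers were low in all groups. CTRB2 was at 0 in all 7 libraries, PTF1A was at 0 in all but the iKD2 Dox- libraries, PRSS2 did not exceed 0.114 CPM, and CPA1 and PRSS1 ranged from 0 to 15.2 and from 0 to 15.4 CPM. SOX9, a duct and progenitor factor (72.1 to 202 CPM), MUC1 (12.9 to 86.9 CPM) and SPP1 (6.49 to 24.4 CPM) followed KRT19. Of 9 mesenchyme and endothelium markers, 4 to 7 were at 5 CPM or more. Their sum was 696 to 1108 CPM in iKD2 Dox+, 286 to 412 CPM in iKD2 Dox- and 624 to 704 CPM in iSCR Dox+, led by the collagen genes COL3A1 (159 to 880 CPM), COL1A1 (38.3 to 162 CPM) and COL1A2 (26.3 to 152 CPM). Both this sum and the duct and acinar sum were lowest in iKD2 Dox-, whereas INS was intermediate there. The part of these cells in the INS difference was not tested.

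The labelled cell type was checked against its markers. Of 10 β-cell markers, IAPP among them, 8 to 10 were at 5 CPM or more in every library, among them SLC30A8 (304 to 700 CPM), the zinc transporter of the insulin granule, and ABCC8 (355 to 547 CPM), a subunit of the β-cell potassium channel. NKX6-1, a β-cell transcription factor, was at 158 to 254 CPM. MAFA, a factor of mature β-cells, ranged from 0 to 38.2 CPM. Of 10 α-cell markers, 8 or 9 were at 5 CPM or more, including TTR, a carrier of thyroid hormone (892 to 1789 CPM), IRX2 (191 to 472 CPM), IRX1 (161 to 370 CPM) and CRYBA2 (68.1 to 303 CPM). The sorted cells thus carried both β- and α-cell transcripts, which bulk RNA cannot assign to the same or to separate cells. Summed α-cell markers were 1910 to 2541 CPM in iKD2 Dox+, 2482 to 3161 CPM in iKD2 Dox- and 2969 to 3142 CPM in iSCR Dox+, and the β-cell markers 1225 to 1566, 1465 to 1953 and 1511 to 1578 CPM in the same order.

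The rarer islet types were represented unevenly. Of 6 δ-cell markers, 2 to 4 were at 5 CPM or more. CASR (45.8 to 135 CPM), HHEX, the δ-cell transcription factor (1.61 to 68.2 CPM), LEPR (0.0669 to 18.7 CPM) and RBP4 (0 to 10.1 CPM) were the 4 with the highest means, and PRG4 was at 0 in all 7 libraries. Their sum was 139 CPM in iKD2 Dox+ a, the library with the most SST, and 163 CPM in iSCR Dox+ a, the next, but 164 CPM in iKD2 Dox- b, where SST was 2281 CPM. Of 6 γ-cell markers, 5 or 6 were at that level, led by FEV (85.1 to 233 CPM) and STMN2 (66.1 to 182 CPM). ETV1 (31.8 to 130 CPM) and MEIS2 (17.9 to 105 CPM) followed, and the list summed to 368 to 536 CPM in iKD2 Dox+, 593 to 650 CPM in iKD2 Dox- and 430 to 510 CPM in iSCR Dox+. Of 5 ε-cell markers, 2 or 3 were at that level. These were ACSL1 (9.56 to 82.9 CPM), SPTSSB (2.61 to 52.5 CPM) and OPRK1 (0 to 18.5 CPM). MBOAT4, the enzyme that adds the acyl chain to ghrelin, was at 0 in 4 libraries and did not exceed 4.43 CPM.

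Enterochromaffin cells, the serotonin cells of the gut, arise in such cultures. Of their 7 markers, 6 or 7 were at 5 CPM or more, including TPH1, the first enzyme of serotonin synthesis (541 to 872 CPM), DDC, the next (169 to 278 CPM), FEV, which is also on the γ-cell list, and MME (50.3 to 172 CPM). Their sum was 1171 to 1312 CPM in iKD2 Dox+, 1531 to 1678 in iKD2 Dox- and 1058 to 1351 in iSCR Dox+. Of 5 endocrine progenitor markers, 3 to 5 were at that level, with NEUROD1 (182 to 270 CPM), SOX4 (118 to 219 CPM), HES6 (4.24 to 73.2 CPM) and NEUROG3 (0 to 24.3 CPM) in front. Of 5 pluripotent cell markers, 1 or 2 were at that level. Their sum was 7.65 to 62.3 CPM, with LIN28A (1.09 to 57.6 CPM) the highest in all libraries but iKD2 Dox+ c, where TDGF1 was at 8.18 CPM, and POU5F1, which defines the pluripotent cell, was at 0 in 4 libraries and at most 4.06 CPM. No gene of these marker lists passed an adjusted p of 0.05 in edgeR or in limma voom in any comparison. In DESeq2, IRX1 and DDC were among the genes called lower, and KRT19 was called higher, in induced cells against the scramble line, and KRT19, SOX9, COL1A2 and COL3A1 were called higher against uninduced cells. COL3A1 was also called lower in uninduced than in scramble cells.

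Of the enzymes that act on prohormones, 7 of 8 were at 5 CPM or more in every library, and MBOAT4 was at 0 in 4 libraries. All 8 were tested and none passed an adjusted p of 0.05 in edgeR in any comparison. The 4 with the highest mean CPM were CPE (595 to 1055 CPM over the 7 libraries), the carboxypeptidase that trims the cut ends, PCSK1N (341 to 570 CPM), an inhibitor of the convertase PCSK1, PCSK2 (323 to 545 CPM), the convertase that makes glucagon, and SCG5 (171 to 452 CPM), its chaperone. At an unadjusted p under 0.05, 2 of 8 were lower in iKD2 Dox+ than in iKD2 Dox-, namely SCG5 (-0.68) and PCSK1 (-0.95). Of all genes, 3.72% had such a p there, in either direction. Against iSCR Dox+, 1 of 8 was lower, CPE (-0.52), where 6.72% of all genes had such a p. Between the controls 1 of 8 was higher in iKD2 Dox-, against 4.45% of all genes. PCSK1, a convertase that cuts proinsulin, is named after its values were seen. It had 50.4, 94.8 and 72.7 CPM in iKD2 Dox+, against 166 and 115 in iKD2 Dox- and 49.4 and 40.3 in iSCR Dox+. Between the controls its log2 fold change was 1.65, with iKD2 Dox- the higher (edgeR adjusted p = 0.527), a difference that DESeq2 called and limma voom did not. The list's median log2 fold changes were -0.27, -0.17 and 0.08 in the 3 comparisons, against 0.01, 0.08 and 0.04 for all genes tested.

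Of 18 receptors of these hormones, 13 passed the filter on low counts and none passed an adjusted p of 0.05 in edgeR. The 4 with the highest means were the insulin receptor INSR (92.6 to 155 CPM), the somatostatin receptors SSTR2 (27.6 to 119 CPM) and SSTR1 (5.56 to 59.1 CPM), and GLP1R (25.7 to 98.4 CPM), the receptor for the GLP-1 peptide that GCG encodes. The ghrelin receptor GHSR and the receptors NPY2R, NPY4R and NPY5R of the PYY family had no counts in any library. Of the 13 tested, 2 had an unadjusted p under 0.05 in iKD2 Dox+ against iKD2 Dox-, both lower, SSTR1 (-1.37) and SSTR2 (-1.07). Against iSCR Dox+ 3 were lower and 1 was higher, with SSTR1 (-1.42) and SSTR2 (-1.29) among the lower. Between the controls 1 was higher in iKD2 Dox-. The shares of all genes with such a p, in either direction, were 3.72%, 6.72% and 4.45%. For SSTR1 and SSTR2 the edgeR adjusted p was 1 against iKD2 Dox-, and 0.699 and 0.471 against iSCR Dox+. Against iSCR Dox+, DESeq2 called SSTR2 lower and NPY1R higher in induced cells (NPY1R is named after its values were seen), and no other receptor in any comparison. The median log2 fold changes of the receptors tested were 0.22, 0.21 and 0.02.

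Other gut, islet and neuro-peptide hormones were mostly absent or low. Of 30 genes, 16 passed the filter, between 4 and 9 were at 5 CPM or more in a library and none passed an adjusted p of 0.05 in edgeR. IGF2, which lies beside INS, was the most abundant. It was at 25024 to 31956 CPM, above the highest INS value on that scale, whereas per length it was at 8191 to 10460 CPM per kb, below the lowest INS value. ADM, the vasodilator adrenomedullin, ranged from 57.2 to 173 CPM, GIP from 0.334 to 39.4 CPM and NTS from 0 to 20.8 CPM. TRH and ADCYAP1 were called higher by DESeq2 in both iKD2 groups than in iSCR Dox+, and are named after their values were seen. TRH was at 0 CPM in both iSCR Dox+ libraries and averaged 5.40 CPM in iKD2 Dox+ and 13.7 CPM in iKD2 Dox-. The median log2 fold changes of the genes tested were 0.12, 1.02 and 0.97, against 0.01, 0.08 and 0.04 for all genes tested. TRH and ADCYAP1 were at or near 0 in iSCR Dox+ and passed the filter only through iKD2 libraries. For such genes a higher value in the iKD2 groups was largely set by the filter, so that these medians are not read as a change. Among genes that overlap a member, lie beside INS or are near-identical to a member, 7 of 8 were found in the table. Of these 4 were tested, and none passed in edgeR, DESeq2 or limma voom. The 4 with the highest means were IGF2, INS-IGF2 (0 to 59.3 CPM), TH (9.55 to 27.8 CPM) and GHRLOS (0 to 6.92 CPM).

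The genes whose pattern over the 7 libraries was most like that of INS, GCG and SST were then listed. Likeness was the root mean square difference of log2 CPM after each gene was centered on its mean, among the 4276 genes with a mean of at least 50 CPM, members included. For INS the 5 closest non-member genes were DNM1L (0.091), SHOC2 (0.10), PHC3 (0.13), ZMYND11 (0.14) and DPYSL2 (0.15). For GCG they included the islet transcription factor ISL1 (0.13), STMN2 (0.15), BCL2L1 (0.16) and GTF3C4 (0.16). For SST they were XRN1 (0.11), TRIOBP (0.11), TRPM7 (0.12), ADCY2 (0.13) and CCND1 (0.14). The median distance over all candidates was 0.50 from INS, 0.52 from GCG and 0.49 from SST. Between the hormones, INS and GCG were 0.33 apart, and SST was 0.53 from INS and 0.64 from GCG, both farther than the median gene. INS and GCG were closer to each other than the median gene was to either, yet 497 of the 4276 genes were closer to INS than GCG was. Likewise 369 were closer to GCG than INS was, with the gene itself included in each count.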

How the data were processed

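RNA-seq was performed on sorted β-like cells in 7 libraries. The methods of the study name a kit for stranded total RNA, removal of adapters and assignment of reads to human transcripts with Kallisto (fastp and kallisto are also in the submitters' processing notes), with tximport to sum transcripts by gene. What the authors deposited are estimated counts of each gene, with no scaling to depth. Versions, annotation and strand setting are not given in the sources used here. Kallisto divides reads between transcripts that share sequence, so that counts of overlapping genes are uncertain.

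Estimated counts were rounded, filtered with filterByExpr by group (22926 genes, all 8 hormone genes among them), and given TMM factors. The test was edgeR's robust quasi-likelihood F-test (edgeR 4.0.16, R 4.3.3), with 1 fit of all 7 libraries. Calls were made at a Benjamini-Hochberg adjusted p of 0.05 over all genes tested. Standard errors were derived from the log2 fold change and its F value. Ratios to INS used log2 of counts plus 0.5 and exact permutation tests (scipy 1.17.1, Python 3.11.15). Per-length levels used GENCODE 29, and promoters came from RefSeq (GRCh38.p14). Of 143 genes in the lists, 142 were matched to an ID. The fitting script was tested on simulated data. Replicates of a group differed by far more than sampling noise (97.7 to 163 times its variance at the median gene), in each of the 5 pairs within groups. Pairs between groups were not compared.

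The hormone genes, lists and tests were chosen with earlier results of these data known. By rule, the text names all 8 hormone genes, METTL14 and, from each other list, the genes past an adjusted p of 0.05, the 4 with the highest mean CPM and its defining markers. It also names the 5 genes most like INS, GCG and SST. Some genes that the rule names are not reported here. Alternatives were other scaling, filters and tools (DESeq2 1.42.0, limma 3.58.1 voom), a fit of 2 groups, a replicate block and each library left out. Where a library was left out the filter was applied again, and a lone library was taken to vary like the other groups. Adding overlapping genes to INS and GHRL, and leaving out libraries with the gene set held fixed, were chosen after seeing the data.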

Additional observations from a re-analysis of the deposited data

How the results depend on the processing

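The log2 fold change of INS kept its sign in all 3 comparisons under 23 alternatives each, from -0.52 to -0.26 in iKD2 Dox+ against iKD2 Dox-, from -0.94 to -0.79 against iSCR Dox+ and from -0.58 to -0.33 between the controls. The count of hormone genes called was 0, 1 and 0 in these comparisons. With genes of at least 5 mean CPM it became 0 against iSCR Dox+, and with limma voom it became 1 between the controls. With libraries left out it ranged from 0 to 1 in each. It was 1 in the first comparison without iSCR Dox+ a or b, 0 in the second without iKD2 Dox+ a and 1 in the third without iKD2 Dox- b or iSCR Dox+ b. When the gene set was held fixed, an alternative chosen after seeing the data, the counts stayed at 0, 1 and 0 without each library. The cause was not tested.

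Calls over all genes were 9, 6 and 3. They were 51, 66 and 32 with no filter beyond 1 count, 2, 1 and 1 with at least 5 mean CPM, 465, 911 and 445 with DESeq2, and 0 in the third comparison with a fit of its 2 groups. With libraries left out they ranged from 2 to 115, from 2 to 544 and from 2 to 445, the highest values without iSCR Dox+ b and with the filter applied again. With the gene set held fixed and without iSCR Dox+ b they were 24, 187 and 151. With a replicate block (letters a, b and c) they were 18, 15 and 8, and the hormone genes called stayed at 0, 1 and 0. Deviations of libraries with the same letter correlated between -0.027 and 0.016, so that the letters were taken not to pair the libraries.

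Directions of the other hormones were less stable, and none of them passed in any alternative. In iKD2 Dox+ against iKD2 Dox-, the replicate block gave SST -0.083, IAPP -0.20 and GHRL -0.30, limma voom gave GHRL -0.060, and adding GHRLOS to GHRL gave -0.17. SST was -0.00258 against iSCR Dox+ with DESeq2 size factors in edgeR and -0.00262 with the DESeq2 test. Between the controls the block gave GCG -0.051 and SST 0.28. With libraries left out (the gene set filtered again or held fixed), the log2 fold changes in the first comparison ranged for SST from -0.048 to 0.42, for IAPP from -0.17 to 0.87, for GHRL from -0.32 to 0.36 and for PYY from -0.44 to 0.29. They ranged for SST from -0.36 to 0.54 and for IAPP from -0.10 to 0.80 in the second, and for GCG from -0.15 to 0.36, for SST from -0.59 to 0.31, for IAPP from -0.49 to 0.48 and for PPY from -0.53 to 0.25 in the third. Ratios to INS were given the same sign by a pseudocount of 1 or 5. With libraries left out they ranged for GCG from -0.30 to 0.10, for IAPP from -0.020 to 1.15 and for GHRL from -0.059 to 0.73 in the first comparison, for PPY from -0.76 to 0.064 and for GHRL from -0.054 to 0.69 in the second, and for SST from -0.11 to 0.74, for PPY from -0.048 to 0.68 and for GHRL from -0.42 to 0.37 in the third.

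With the union of exons as length, INS was at 20692 CPM per kb, GCG at 3896, IAPP at 7.59, PPY at 43.1, GHRL at 12.0 and PYY at 115. With the longest coding transcript, IAPP was at 8.17 and GHRL at 17.3 CPM per kb. With the largest absolute difference in place of the root mean square, 4 of the 5 genes closest to INS, 5 of those closest to GCG and 4 of those closest to SST were shared. Intervals of IAPP, PPY, GHRL and GAST, at low counts, spanned more than 2 log2 units.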
